A study of Arabidopsis thaliana with 12 samples.

Results

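RD29A, RD29B, RD20 and RD22 are Arabidopsis genes named for their response to desiccation, and their transcripts are widely used as reporters of drying in plant tissue. They were chosen by locus, as the probe sets AT5G52310_at (RD29A, also LTI78), AT5G52300_at (RD29B, also LTI65), AT2G33380_at (RD20) and AT5G25610_at (RD22), and all 4 were among the 21461 probe sets tested. Expression was measured in young leaves of Arabidopsis thaliana, ecotype Columbia, on 12 Affymetrix ATH1 arrays in 6 groups of 2, with leaves of 5 plants pooled for each array. All plants were grown in peat pellets at 22 °C with 10 h of light. Under moderate drought, watering stopped 30 days after sowing and soil was then kept at 30% of field capacity, and leaves were taken at day 1 and at day 10. Under progressive drought, watering stopped 35 days after sowing and the soil dried until the day on which leaves began to wilt. Each sampling had its own well-watered control group, and n counts pools. Each gene was read by 1 probe set, on an array that measures the 3' part of transcripts, so promoter activity was not measured.

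Drying leaves accumulate abscisic acid (ABA), which activates SnRK2 kinases and through them bZIP factors of the ABF/AREB group that bind the ABA-responsive element (ABRE). A route that does not need ABA runs through DREB factors, which bind the dehydration-responsive element (DRE). RD29A encodes a very hydrophilic protein and carries both elements in its promoter, so that cold, drought and ABA all induce it. RD29B is its relative and tandem neighbour on chromosome 5, with 0 genes between them in the RefSeq table, and depends mainly on ABRE and ABA. RD20 encodes a caleosin, a calcium-binding peroxygenase of lipid droplets, and RD22 a protein with a BURP domain whose induction by ABA runs through the factors MYC2 and MYB2.

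The arrays shared one distribution of values only within each comparison, as after 3 separate normalisations of 4 arrays, so log2 levels are set side by side only within a set. The root mean square SD between replicates over all probe sets was 0.12 to 0.15 log2 units at day 1, 0.15 to 0.21 at day 10 and 0.31 to 0.37 in the progressive set. The test (limma) takes 1 spread per probe set from all 12 arrays, which on average makes its errors too small for the progressive set and too large for day 1. When the fit was tested on simulated data with spreads as unequal as these, it made far more false calls in the progressive set than its threshold allows, and few at day 1. Only a small part of the probe sets was changed in those data, so they do not give the share of false calls among the real progressive calls. In progressive drought, "rose" and "fell" therefore mean called by the fit to 12 arrays, and the text says which of these calls were also made with the 4 arrays of the comparison alone, the stricter reading. A probe set was called at a Benjamini-Hochberg adjusted p under 0.05, and errors after ± are standard errors of the fit to 12 arrays. The leaf markers RCA and LHCA1, the 2 of 5 listed that were measured, lay at or above the 99.7th percentile of every array, and the 4 seed and embryo markers at or below the 37.1st. In a whole-leaf sample, fewer cells of a type and less RNA per cell cannot be told apart.

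**Figure D1:**
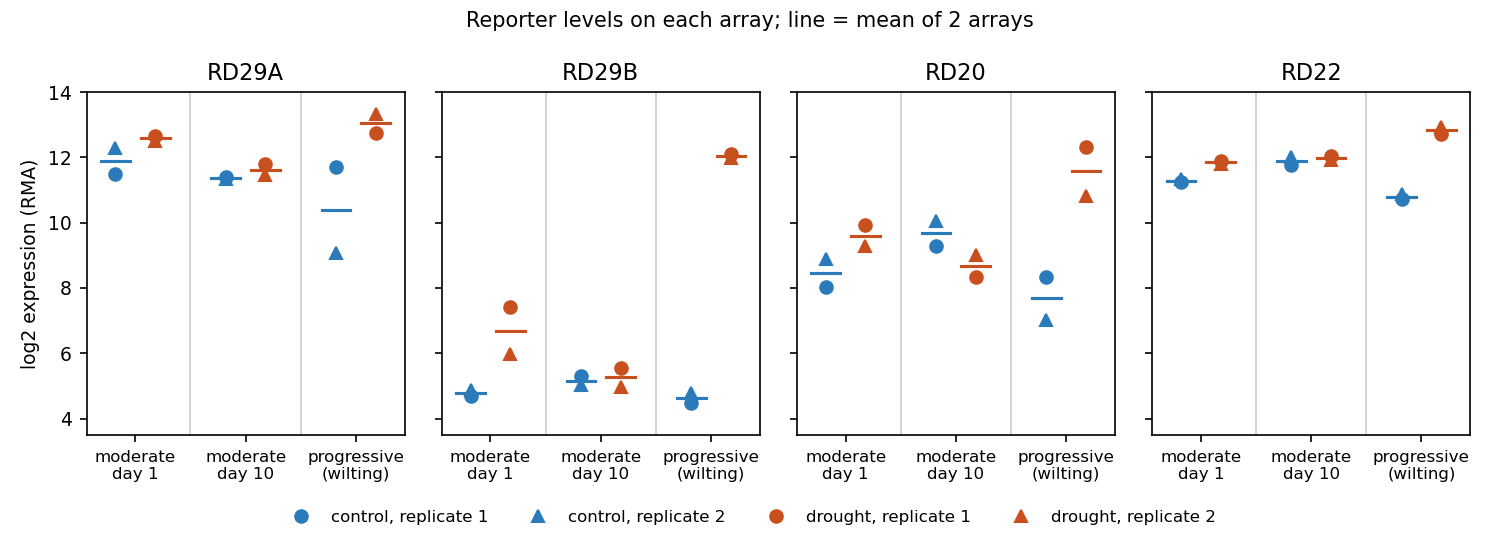
Log2 expression of each reporter (vertical axis) on the 12 arrays, by comparison (horizontal axis), with controls in blue, drought in orange, circles for replicate 1, triangles for replicate 2 and lines for group means; levels are comparable only within a comparison. All 4 reporters lie above their controls at day 1 and in progressive drought, RD29B lies near 12 only on the progressive drought arrays, and the progressive control arrays of RD29A are 2.64 apart.

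Progressive drought asks what the reporters do when soil water runs out until the leaves wilt. All 4 reporters rose, by 2.03 (RD22) to 7.41 (RD29B) log2 units with a median of 3.28, where the median over all probe sets was 0.00 and 12.5% of all probe sets were called as risen. With the 4 progressive arrays alone 2 of the 4 were called, RD29B and RD22, against 2.74% of all probe sets. The drought arrays lay above the control arrays for 4 of 4 reporters and for 27.1% of all probe sets.

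RD29B, the ABA-dependent member of the tandem pair, read 4.48 and 4.78 on the control arrays and 12.09 and 11.99 on the drought arrays. The replicates lay close together in each group, and the groups did not overlap. The difference of 7.41 ± 0.39 (adjusted p = 6.4e-06 by limma, 95% interval 6.52 to 8.30, n = 2 arrays per group) was the 7th largest rise of all probe sets. Its adjusted p was 0.0164 with the 4 arrays alone. On the control arrays RD29B lay at the 46.4th and 51.3rd percentile of all probe sets, and whether such a level exceeds background was not tested. The linear ratio of 169.9 is therefore approximate. On the drought arrays it lay at the 99.7th and 99.6th percentile.

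RD20, the caleosin gene, read 8.34 and 7.02 on the control arrays and 12.33 and 10.83 on the drought arrays. Replicate 1 was the higher array in both groups, and the groups did not overlap. The rise was 3.90 ± 0.60, or 14.9-fold (adjusted p = 0.00131 by limma, 0.068 with the 4 arrays alone, n = 2). RD20 varied more between replicates than most genes did: 98.0% of probe sets had a smaller gap between the control arrays and 97.7% between the drought arrays.

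RD29A, the reporter that answers both to DREB factors and to ABA, read 11.71 and 9.07 on the control arrays and 12.76 and 13.34 on the drought arrays. Control replicate 1 stood 2.64 above control replicate 2, a gap exceeded by 81 of 21461 probe sets, and lay closer to the drought arrays than to its own replicate. The rise was 2.66 ± 0.68, or 6.31-fold (adjusted p = 0.0184 by limma, n = 2). It was not called with the 4 arrays alone (adjusted p = 0.218, 95% interval −0.16 to 5.47). Without control replicate 1 the difference was 3.97, and without control replicate 2 it was 1.34. Without drought replicate 2 it was 2.37 at an adjusted p of 0.0683. RD29A was already above the 95th percentile on each control array, at 99.5 and 95.2.

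RD22, the BURP-domain gene, read 10.72 and 10.88 on the control arrays and 12.72 and 12.94 on the drought arrays. Replicates agreed within 0.22 in each group. The rise was 2.03 ± 0.12, or 4.08-fold (adjusted p = 1.1e-05 by limma, 0.0200 with the 4 arrays alone, n = 2). RD22 thus had a smaller difference than RD29A or RD20 and a smaller error than either.

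**Figure D2:**
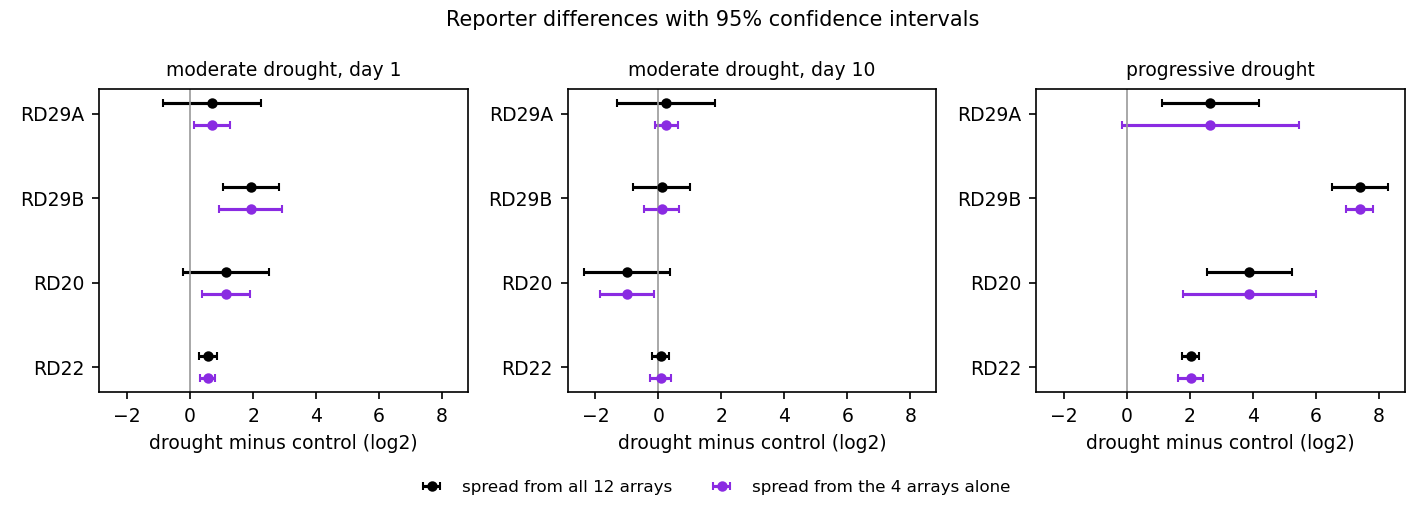
Drought minus control in log2 units (horizontal axis) for each reporter (vertical axis) in the 3 comparisons, with 95% confidence intervals from all 12 arrays in black and from the 4 arrays of the comparison alone in purple. RD29B and RD22 have intervals well above 0 by both estimates in progressive drought, while that of RD29A from the 4 arrays alone, −0.16 to 5.47, includes 0.

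The gap between the control arrays of RD29A was shared by listed targets of the cold and DRE response. All 7 measured of 9 listed cold- and DRE-linked targets were higher in control replicate 1, by 1.04 to 3.11 with a median of 2.27, where the median over all probe sets was −0.03. COR47, a dehydrin, read 11.77 and 10.05 there, and ERD10, another dehydrin, read 12.18 and 9.92. Among all probe sets 9542 of 21461 were higher in replicate 1. The DRE-binding factors as a list did not share the gap, with 3 of 6 higher in replicate 1 and a median of −0.02. DREB2A was an exception, with 5.65 and 4.18. Of the ABRE-linked targets 2 of 7 were higher in replicate 1, with a median of −0.02, and RD29B differed by −0.30. RD26, a NAC factor on that list, was an exception, with 9.94 and 6.80. The RD29B gap was exceeded by 5364 of 21461 probe sets, so RD29B did not share the gap of RD29A although they are tandem genes. Whether probes of one read transcripts of the other was not tested.

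Clock genes moved with the same arrays. The 4 measured dusk-phased genes were all higher in control replicate 1, with a median of 2.21 for replicate 1 minus replicate 2, and the 4 dawn-phased genes were all lower there, with a median of −1.16. TOC1, an evening component of the clock, read 8.45 and 6.21 on the control arrays and 5.93 and 8.80 on the drought arrays. CCA1, a morning component, read 4.05 and 7.42 on the control arrays and 9.54 and 6.64 on the drought arrays. On the drought arrays the order was turned, with all 4 dawn genes higher in replicate 1 (median 2.60) and all 4 dusk genes lower (median −2.91), while RD29A was 0.58 lower there. At day 1 the medians of these lists ran from −0.09 to 0.08 in the same measure, and at day 10 from −0.74 to 0.12. None of the 8 clock genes was called in any comparison. Their part in the RD29A values was not tested.

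**Figure D3:**
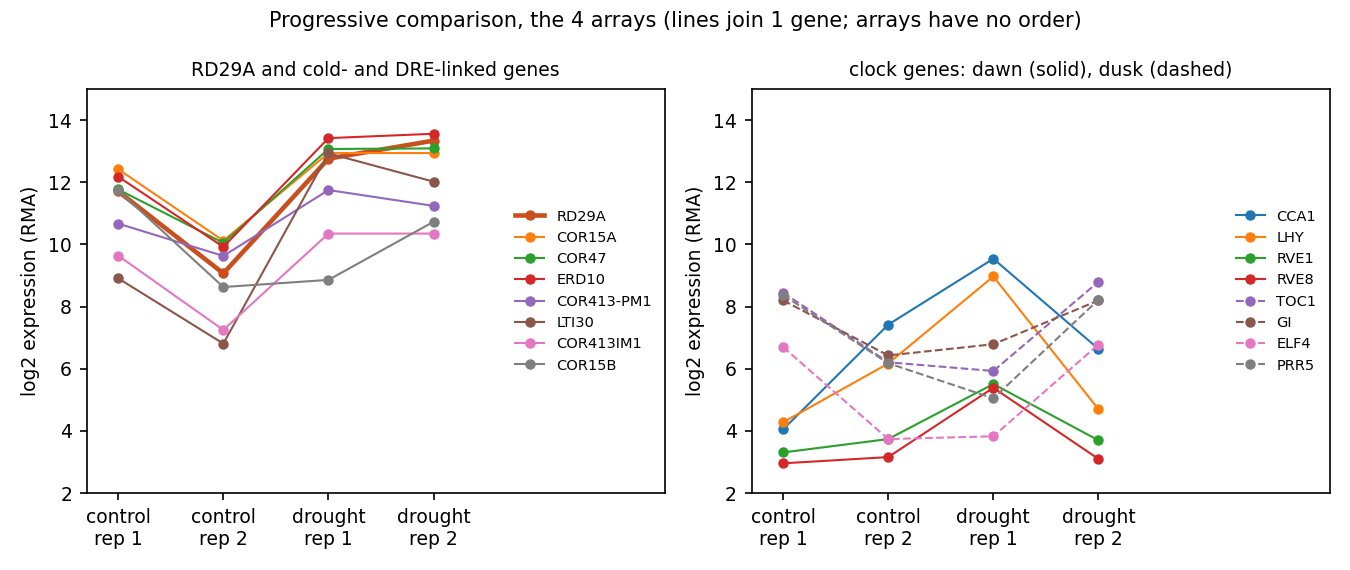
Log2 expression (vertical axis) on the 4 progressive arrays (horizontal axis) of RD29A with the cold- and DRE-linked genes (left) and of clock genes, dawn-phased as solid and dusk-phased as dashed lines (right). RD29A, 11.71 and 9.07 on the control arrays, falls from control replicate 1 to replicate 2 together with all 7 targets, and the dusk genes fall and the dawn genes rise between the same arrays.

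The regulators and other targets of these pathways were followed in the same comparison, in which 12.5% of all probe sets were called as risen. Of 6 measured DRE-binding factors 2 rose, DREB2A (4.14 ± 0.39, adjusted p = 9.3e-05), the drought-induced activator of RD29A, and CBF4 (0.59 ± 0.18, adjusted p = 0.0374), with a list median of 0.70. Of 6 ABRE-binding factors including ABI3, 4 rose, among them ABF3 (3.43 ± 0.25), ABF4 (2.38 ± 0.38) and ABI5 (0.43 ± 0.11), and the list median was 0.42. Upstream of them NCED3, which catalyses the rate-limiting step of ABA synthesis, rose by 3.81 ± 0.30, and the SnRK2 kinase gene OST1 by 0.89 ± 0.19. Of the pair of factors tied to RD22, MYB2 rose by 0.99 ± 0.14. MYC2 was at 1.49 ± 1.25, with 9.42 and 5.21 on the control arrays and 7.53 and 10.08 on the drought arrays. With the 4 arrays alone DREB2A, ABF3, NCED3 and MYB2 were called, at adjusted p of 0.0394, 0.0171, 0.0221 and 0.0413, and CBF4, ABF4, ABI5 and OST1 were not. That left 1 of 6 on the DRE-binding list and 1 of 6 on the ABRE-binding list, beside 2.74% of all probe sets.

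Among the targets, 6 of 7 ABRE-linked genes rose, with a median of 5.74, and 4 of 7 were called with the 4 arrays alone. The smallest adjusted p belonged to HB-7 (5.74 ± 0.25), a homeobox factor, HAI1 (6.41 ± 0.36), a phosphatase that restrains ABA signalling, and the dehydrin RAB18 (8.37 ± 0.48). The largest difference was that of LEA7, a late embryogenesis abundant protein (9.45 ± 0.60, adjusted p = 0.0174 with the 4 arrays alone). The 2 lost with the 4 arrays alone were EM1 and RD26, at adjusted p of 0.0999 and 0.142. Of the cold- and DRE-linked targets 5 of 7 rose, with a median of 1.91, of which LTI30 (4.61 ± 0.63), COR47 (2.17 ± 0.45) and ERD10 (2.44 ± 0.58) had the smallest adjusted p, and 0 of them were called with the 4 arrays alone. The difference of RD29B thus lay above the median of the ABRE-linked list, and that of RD29A, 2.66, above the median of the cold- and DRE-linked list. Of 13 measured genes that also carry an RD or ERD name, 5 rose and 2 fell, where 12.5% of all probe sets were called as risen and 14.5% as fallen. With the 4 arrays alone 3 were called as risen and 1 as fallen, where 2.74% and 4.59% of all probe sets were. ERD1, a chloroplast Clp protease subunit, rose by 2.82 ± 0.17, RD2 by 2.06 ± 0.20 and the dehydrin ERD14 by 1.90 ± 0.19. The 2 that fell, named here after their values were seen, were the sugar transporter gene ERD6 (−2.36 ± 0.31) and the proline dehydrogenase gene ERD5 (−1.93 ± 0.42), and ERD5 was not called with the 4 arrays alone (adjusted p = 0.115).

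None of the measured genes listed as protein relatives of RD20 or RD22 rose. Of 6 loci on the caleosin list 4 were measured, of which 0 were called by limma and 0 had an unadjusted p under 0.05. Their differences ranged from −0.26 to 0.29, with CLO2 at −0.26 and AT1G23240 at 0.29. These 4 loci were dim, at 3.31 to 4.01 on the progressive arrays, within the 3.13 to 4.07 of the seed and embryo markers there. Their detection in these leaves was not tested, so the missing calls do not show that relatives of RD20 are unresponsive. Of 4 BURP-domain genes 0 rose and 1 fell, PG2 (−1.24 ± 0.31, adjusted p = 0.0163), and the other 3 were between −0.38 and −0.11. AT4G25580, the 1 locus of a further list of possible relatives of the RD29 pair, read 4.48 and 4.76 on the control arrays and 5.42 and 5.00 on the drought arrays (0.59 ± 0.16, adjusted p = 0.0218). Neither PG2 nor AT4G25580 was called with the 4 arrays alone, at adjusted p of 0.159 and 0.200.

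Some marker genes differed between the progressive groups, where 12.5% of all probe sets were called as risen and 14.5% as fallen. Both leaf markers fell, from a summed log2 level of 26.6 to 26.7 in the controls to 25.4 to 25.6 under drought. The 6 guard cell markers summed to 25.8 to 27.2 in the controls and 24.5 to 25.2 under drought, with 1 fall, KAT1 (−1.26). The median difference of the 6 was −0.09, and 2 of them were above 0. The 5 vascular markers summed to 26.9 to 28.8 and 28.9 to 31.2, with 1 rise, IRX3. Of 4 root markers 1 fell, PYK10, and of 5 floral and shoot apex markers 0 were called. With the 4 arrays alone none of these falls was called (RCA 0.262, LHCA1 0.205, KAT1 0.161 and PYK10 0.180 as adjusted p). IRX3 was called as risen (0.0376), as were 2.74% of all probe sets. The part of these shifts in the reporter differences was not tested. The seed and embryo markers summed to 14.1 to 14.8 in the controls and to 14.5 on both drought arrays, and 0 of 4 were called or had an unadjusted p under 0.05.

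**Figure D4:**
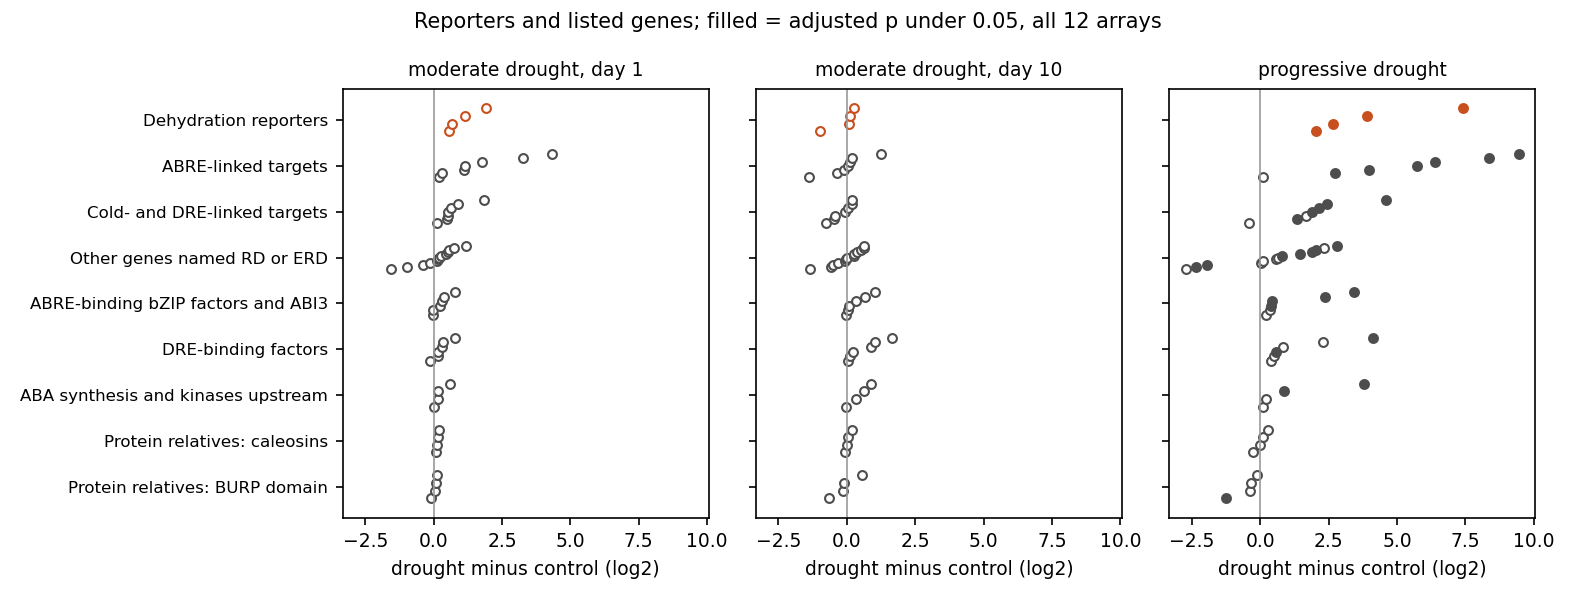
Drought minus control in log2 units (horizontal axis) for the reporters (orange) and the genes of 8 lists (grey, vertical axis) in the 3 comparisons, 1 circle per gene, filled where the adjusted p from all 12 arrays was under 0.05. In progressive drought all 4 reporters and 6 of 7 ABRE-linked targets are filled and to the right of 0, while no reporter is filled at day 1 or day 10.

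Moderate drought at day 1 asks where the reporters stand at the early stage of the treatment. All 4 were above their controls on both drought arrays, by 0.56 (RD22) to 1.92 (RD29B) log2 units with a median of 0.92, and 26.6% of all probe sets had arrays ordered that way. None was called by limma. The fit to 12 arrays called 0.014% of all probe sets as risen, and 2 of the 4 reporters, RD29B and RD22, had an unadjusted p under 0.05 (9.0e-04 and 0.00149), as had 8.69% of all probe sets. With the 4 arrays alone 0.503% of all probe sets were called as risen and again 0 of the reporters, at adjusted p of 0.0631 to 0.213.

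RD29B read 4.68 and 4.87 on the control arrays of day 1 and 7.41 and 5.98 on the drought arrays. Drought replicate 1 was 1.43 above drought replicate 2, a gap that 15 probe sets exceeded. The difference was 1.92 ± 0.39 (adjusted p = 0.194 by limma, 0.0952 with the 4 arrays alone). It was 2.64 without drought replicate 2, where it was called at an adjusted p of 0.0277, and 1.20 without drought replicate 1.

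RD20 read 8.04 and 8.88 on the control arrays and 9.94 and 9.27 on the drought arrays. RD29A read 11.49 and 12.28 on the control arrays and 12.66 and 12.50 on the drought arrays. For both genes control replicate 2 lay closer to the lower drought array than to control replicate 1, and the gaps between the controls, 0.84 and 0.79, were exceeded by 14 and 18 probe sets. The differences were 1.14 ± 0.60 for RD20 (adjusted p = 0.643) and 0.69 ± 0.68 for RD29A (adjusted p = 0.857), by limma. Without control replicate 1 they were 0.72 and 0.30, and without control replicate 2 they were 1.56 and 1.09. Without drought replicate 1 that of RD20 was 0.81. RD22 read 11.24 and 11.33 on the control arrays and 11.89 and 11.80 on the drought arrays. Its difference of 0.56 ± 0.12, or 1.48-fold, was small and steady (adjusted p = 0.222 by limma, 0.0631 with the 4 arrays alone).

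The genes around them were not called at day 1 in the fit to 12 arrays either. The 7 ABRE-linked targets were all above 0 with a median of 1.15, LEA7 (4.31 ± 0.60) and RAB18 (3.27 ± 0.48) being the largest. Of the 7, 5 had an unadjusted p under 0.05, beside 8.69% of all probe sets. The 4 arrays alone called 3 of them, beside 0.503% of all probe sets called as risen. All 7 were higher in drought replicate 1 than in replicate 2, with a median of 0.69, beside −0.02 over all probe sets. The 7 cold- and DRE-linked targets were all above 0 with a median of 0.54, with LTI30 at 1.84 ± 0.63 and COR413IM1 at 0.91 ± 0.60, and LTI30 was the 1 called with the 4 arrays alone. DREB2A was at 0.77 ± 0.39, ABF3 at 0.79 ± 0.25, NCED3 at 0.59 ± 0.30, MYB2 at 0.44 ± 0.14 and MYC2 at −0.29 ± 1.25. Among the other RD and ERD genes ERD5 was at −1.55 ± 0.42 and ERD9, a glutathione S-transferase, at 1.18 ± 0.71. With the 4 arrays alone ERD9 was called as risen (adjusted p = 0.0325 by limma) and ERD6 (−0.99 ± 0.31) as fallen (adjusted p = 0.0244). That fit called 108 of 21461 probe sets as risen and 79 as fallen. ERD5 was not called by it (adjusted p = 0.0806). The 5 vascular markers were all above 0, with a summed level of 29.7 to 29.9 in the controls and 32.4 to 32.9 under drought, and 0 were called (4 at an unadjusted p under 0.05, 1 with the 4 arrays alone). Their part in the reporter differences was not tested.

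The late stage of moderate drought asks what remains of the response after 10 days at constant soil moisture. None of the reporters was called and none had an unadjusted p under 0.05 by limma, where 0.0466% of all probe sets were called as risen and 0.0606% as fallen. With the 4 arrays alone 0 reporters and 0.0% of all probe sets were called. The median of the 4 differences was 0.08, beside 0.02 over all probe sets. RD29A lay above its controls on both drought arrays, as did 25.7% of all probe sets, RD20 lay below, as did 18.9%, and RD29B and RD22 overlapped.

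RD20 read 9.30 and 10.05 on the control arrays of day 10 and 8.35 and 9.01 on the drought arrays. It was the 1 reporter with a negative difference, −0.99 ± 0.60 (adjusted p = 0.659 by limma, 0.298 with the 4 arrays alone). The value was −0.62 without control replicate 2 and −1.37 without control replicate 1. RD29A read 11.41 and 11.34 on the control arrays and 11.79 and 11.46 on the drought arrays, a difference of 0.25 ± 0.68. RD29B read 5.31 and 5.02 on the control arrays and 5.55 and 4.98 on the drought arrays, a difference of 0.10 ± 0.39. RD22 read 11.78 and 12.02 on the control arrays and 12.03 and 11.91 on the drought arrays, a difference of 0.07 ± 0.12. With the 4 arrays alone the adjusted p was 0.530 for RD29A, 0.918 for RD29B and 0.893 for RD22. The 95% intervals from all 12 arrays were −1.30 to 1.79 for RD29A, −0.79 to 0.99 for RD29B and −0.21 to 0.35 for RD22. By these, the 0.56 of RD22 at day 1 lies outside its interval, while the interval of RD29A contains its 0.69 at day 1. With the 4 arrays alone the intervals were −0.12 to 0.61 for RD29A, −0.47 to 0.67 for RD29B and −0.25 to 0.39 for RD22. None of these contains the day 1 difference of its reporter.

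Around them at day 10 the ABRE-linked targets had a median of 0.05 and the cold- and DRE-linked targets one of −0.06, with 0 of 7 called in either list by limma. At an unadjusted p under 0.05 they held 1 and 0 genes, beside 10.4% of all probe sets. RD26 was at −1.39 ± 0.79 and HB-7 at 1.24 ± 0.25, and COR15A, a chloroplast protein of cold acclimation, at −0.78 ± 0.62 and COR15B at −0.46 ± 0.90. The DREB1 family genes DREB1A and CBF2 were at 1.65 ± 0.79 and 1.02 ± 0.46, ABF1 at 1.03 ± 0.44, ABF4 at 0.68 ± 0.38 and the kinase gene SNRK2.3 at 0.87 ± 0.18, none of them called. DREB1A read 5.04 and 4.40 on the control arrays and 7.26 and 5.48 on the drought arrays. CBF2 read 4.70 and 4.43, and 6.33 and 4.83, so both were highest on drought replicate 1. MYC2 was at −1.52 ± 1.25 and MYB2 at −0.32 ± 0.14, and RD22, which they regulate, at 0.07. ERD5 was at −1.34 ± 0.42 and RD19, a cysteine protease, at 0.64 ± 0.18. Of the marker lists, none had a called member at day 10.

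The drought differences were then set against each other. Each is formed within its own set of arrays, and the pair of contrasts with progressive drought share the progressive arrays. RD29B rose by 5.49 ± 0.55 log2 units more in progressive drought than at day 1 (adjusted p = 6.9e-04 by limma, 0.00567 with the arrays of these sets alone) and by 7.31 ± 0.55 more than at day 10 (adjusted p = 2.1e-04 and 9.9e-04). RD22 rose by 1.46 ± 0.18 and 1.96 ± 0.18 more (adjusted p = 0.00142 and 3.8e-04 by limma, 0.00686 and 0.00697 with the arrays of these sets alone). RD20 rose by 4.89 ± 0.84 more than at day 10 (adjusted p = 0.00654 by limma, 0.0332 with the arrays of these sets alone), while its 2.76 ± 0.84 against day 1 was not called (adjusted p = 0.0692 by limma, 0.126 with the arrays of these sets alone). In the same fit 5.26% and 4.67% of all probe sets were called with a larger value in progressive drought than at day 1 and day 10, and 3.48% and 2.19% with the arrays of these sets alone.

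RD29A was the reporter for which neither contrast of progressive with moderate drought was called. Its difference was 1.97 ± 0.96 against day 1 (adjusted p = 0.249 by limma, 95% interval −0.22 to 4.15). Against day 10 it was 2.41 ± 0.96 (adjusted p = 0.159 by limma, 95% interval 0.22 to 4.60, which leaves out 0). With the arrays of these sets alone the adjusted p of these 2 differences was 0.367 and 0.292. Both rest on the progressive controls: without control replicate 1 they were 3.28 and 3.73, at adjusted p of 0.00295 and 0.00147, and without control replicate 2 they were 0.65 and 1.09. Leaving out progressive control replicate 1 or progressive drought replicate 2 also brought the RD20 contrast with day 1 past the threshold, at 3.42 and 3.51 (adjusted p = 0.0328 and 0.0151).

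Between day 1 and day 10 of moderate drought all 4 differences were smaller at day 10. RD20 went from 1.14 to −0.99, a difference of −2.13 ± 0.84, and RD29B from 1.92 to 0.10, a difference of −1.82 ± 0.55. RD22 differed by −0.49 ± 0.18 and RD29A by −0.45 ± 0.96. Without day 1 drought replicate 1 the value of RD29B was −1.10, and that of RD29A was −0.05 without day 1 control replicate 1 and −0.84 without day 1 control replicate 2. None passed the adjustment by limma (adjusted p of 0.635 to 0.989), and 0.0% of all probe sets did. With the arrays of these sets alone 0 reporters and 0.0559% of all probe sets did. Unadjusted, 3 of the 4 had a p under 0.05, all but RD29A, as did 6.86% of all probe sets.

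Ranks on each array describe the levels of one gene without the scale of a set. RD29B lay between the 39.2nd and 51.3rd percentile on all 6 control arrays and between the 42.6th and 50.4th at day 10 of drought. It lay at the 77.0th and 55.1st percentile at day 1 of drought and above the 99th under progressive drought. RD20 ranged from the 81.0th to the 97.1st percentile over the 6 control arrays and from the 88.5th to the 99.8th over the 6 drought arrays, so that all 4 of its moderate drought values lay within its control range. RD22 was high on every array, with its lowest percentile, 98.7, on a progressive control array. RD29A was below the 99th percentile on 1 array, progressive control replicate 2.

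The reporters were compared with each other through their difference on the same array, in which what is common to an array cancels. RD29B minus RD29A was −7.23 and −4.29 on the progressive control arrays and −0.67 and −1.35 on the drought arrays, a difference between the groups of 4.75 log2 units. RD29B minus RD22 differed by 5.38 and RD29B minus RD20 by 3.51, each without overlap between the groups. At day 1 the same pairs differed by 1.23, 1.36 and 0.78, again without overlap. RD29B was thus the reporter with the largest difference on both occasions. At day 10 RD20 minus RD22 was −2.48 and −1.97 on the control arrays and −3.67 and −2.90 on the drought arrays, a difference of −1.06. With 2 arrays against 2 an exact two-sided permutation test cannot go below p = 0.333, the value of each pair without overlap, so none of the 6 pairs per comparison could pass.

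The probe sets most like each reporter were found by the root mean square difference over the 12 arrays, after the mean of the 2 control arrays of each set had been subtracted. Likeness on these same arrays was the condition of choice, so differences that the chosen genes share with a reporter are no separate evidence. For RD29A they were MKK9, a MAP kinase kinase, ERD10 and COR413IM1, all at 0.35 log2 units. These 3 also differed between the progressive control arrays, by 2.59, 2.27 and 2.39. For RD29B they were LEA4-5 (0.52), TSPO (0.57) and DAA1 (0.59), which differed by 7.52, 6.74 and 6.04 in progressive drought. For RD20 they were MES5 (0.53), a methylesterase family gene, HSFC1 (0.54), a heat shock factor, and ECT8 (0.55), and MES5 also had a negative difference at day 10, −1.02. For RD22 they were PIF3 (0.20), a phytochrome-interacting factor, ERD14 (0.20) and RAP2.1 (0.21), an AP2-type factor. Among the reporters themselves RD29A and RD22 were the nearest pair, at 0.66, and RD29B and RD22 the most distant, at 2.29. The genes named above were chosen as the nearest, so their smaller distances are set by that choice. Of all probe sets, 137 lay nearer to RD29A than RD22 did, and 2286 lay nearer to RD22 than RD29A did. For RD29B and RD22 these counts were 342 and 21410.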

How the data were processed

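The authors deposited log2 expression values, 1 column per array. They were made by RMA with affy, per the submitters' processing notes. For versions and probe grouping: not given in the sources used here. The mean range of same-ranked values was 0.0501 to 0.0691 log2 units within each set of 4 arrays and 0.696 over all 12, which is why 3 separate normalisations are assumed. The 56 array control probe sets were left out. Drought minus control was fitted with limma 3.58.1 in R 4.3.3 (6 group means, all 12 arrays, 6 residual and 2.78 prior degrees of freedom), two-sided, adjusted over 21461 probe sets per contrast. The fit was tested on simulated data in which a small part of the probe sets was changed. With equal spreads false calls stayed near the threshold, and with the measured unequal spreads they were far above it in the progressive set. The calls of the fit there are therefore read with those of the 4 arrays alone. Names came from a RefSeq table (TAIR10.1), in which 21164 loci matched. Of 100 list entries in 12 pathway and 6 marker lists, 88 were measured. Members and lists were chosen with earlier results of these data known, so the lists are no independent evidence. Named genes were the 4 reporters, the 3 most alike probe sets with a symbol, and per list up to 3 called members with the smallest adjusted p or, with none called, the 2 largest differences. TOC1, at day 1 ERD6, and in progressive drought MYC2, LEA7, EM1 and RD26, were named after their values were seen. The planned search of promoter motifs was not run. The arrays of a group are separate pools per the labels, and their small number limits precision. Alternatives (arrays of a comparison alone, array weights, cyclic loess, quantile normalisation of all arrays, a filter on dim probe sets, a trended and robust prior, a replicate block, and leaving out each array) are in the closing section. Figures were drawn with matplotlib 3.10.9.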

Additional observations from a re-analysis of the deposited data

Results flagged for a closer look

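The drought difference of a reporter was itself different between comparisons, by an interaction contrast of the limma fit to 12 arrays, in 5 cases, all of them with a larger rise in progressive drought. RD29B rose by 5.49 log2 units more than at day 1 of moderate drought and by 7.31 more than at day 10. RD22 rose by 1.46 more than at day 1 and by 1.96 more than at day 10. RD20 rose by 4.89 more than at day 10. The same 5 were called with the 8 arrays of the compared sets alone, at adjusted p of 9.9e-04 to 0.0332. Both leaf markers and 1 of 6 guard cell markers fell in progressive drought in the fit to 12 arrays, where 14.5% of all probe sets were called as fallen, and none of them was called with the 4 arrays alone. Their part in these differences was not tested.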

How the results depend on the processing

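The directions of the 12 drought differences and 12 differences between effects held under all 7 settings that keep every array. Calls changed as follows. With the arrays of the comparison alone the progressive rises of RD29A (2.66, adjusted p = 0.218) and RD20 (3.90, 0.068) were not called, and with the replicate block that of RD29A was not (2.66, 0.0608). RD29B at day 1 was called with array weights (1.92, 0.047), and RD20 in progressive drought against day 1 with the filter on dim probe sets (2.76, 0.0428) and the replicate block (2.76, 0.0387). The replicate block changed no other call of a reporter, and the numbers do not pair the arrays: replicate differences of control and drought correlated at 0.03, 0.06 and −0.49. A crossed pairing of the progressive arrays, chosen after seeing the data, gave 8, 213 and 6532 called probe sets for day 1, day 10 and progressive drought. RD29B minus RD22 at day 10 turned from 0.03 to −0.05 with cyclic loess and −0.09 with quantile normalization of all 12 arrays.

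Over all probe sets 4 were called at day 1, 23 at day 10 and 5797 in progressive drought. Day 1 gave 187 with its arrays alone, 165 with array weights, 24 with trend and robust and 1 with the replicate block. Day 10 gave 0 with its arrays alone (3038 at an unadjusted p under 0.05), 158 with array weights, 15 with cyclic loess, 49 with trend and robust and 0 with the replicate block (1795 unadjusted). Progressive drought gave 1575 with its arrays alone. Without 1 array the counts ran from 1 to 31, 0 to 92 and 4648 to 6354. Leaving out 1 array, RD29A ran from 0.30 to 1.09 and RD20 from 0.72 to 1.56 at day 1, and day 10 minus day 1 from −2.54 to −1.10 for RD29B and −0.84 to −0.05 for RD29A. RD29B ran from 1.20 to 2.64 at day 1 and from −0.18 to 0.38 at day 10 (−0.04 and −0.18 where the sign turned), and RD22 at day 10 from −0.05 to 0.19. RD29A ran from 1.34 to 3.97 in progressive drought, from 0.65 to 3.28 against day 1 and from 1.09 to 3.73 against day 10, and RD20 against day 1 from 2.01 to 3.51. Pairs on the same array ran from −0.71 to 2.03 at day 1, −1.45 to 1.74 at day 10 and −2.29 to 6.22 in progressive drought. The sign turned for RD29A minus RD22 at day 1 (−0.22 without control replicate 1) and in progressive drought (−0.77 without control replicate 2), and for RD29B minus RD22 at day 10 (−0.23 without control replicate 2, −0.19 without drought replicate 1). The causes were not tested, except that fewer arrays enter these fits.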
